A study of Homo sapiens with 12 samples.

Results

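The response to fulvestrant was examined in PEO1 cells that carried the empty hairpin vector pLKO.1 and so kept their p53, which the series title calls mutant. PEO1 is an established ovarian cancer cell line. Members were chosen by their labels and column names: 3 libraries from cells exposed to 10 μM fulvestrant for 48 h and 3 libraries from untreated cells at 0 h, which is 6 of the 12 libraries of the series. The other 6 libraries hold the same treatment in cells with a short hairpin RNA against p53. All cells grew in RPMI-1640 medium with 10% serum and 2 μg/mL puromycin, the selection drug for the vector. The treatment protocol names 100 pM estradiol (E2), the main natural estrogen, together with fulvestrant, and does not state whether cells at 0 h had it. The effects of drug, of culture time and of estradiol, should it differ, therefore cannot be told apart in what follows. The labels do not tie the 3 libraries of a group to separate cultures. The p-values therefore measure the spread between libraries within groups, estimated from all 12 libraries of the series, and this spread may be technical. All libraries come from this line.

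Fulvestrant is a steroidal antiestrogen that binds the estrogen receptor alpha (ESR1), blocks its activation functions and leads to degradation of the receptor protein by the proteasome. The active receptor binds DNA at estrogen response elements, mostly in distant enhancers, and drives genes of growth, among them GREB1, MYC, MYB and CCND1. In estrogen-dependent cells, estrogen promotes entry into the cell cycle through MYC and cyclin D1, and the genes of DNA replication and mitosis follow under E2F, B-MYB and FOXM1 control. Because fulvestrant acts on the protein, the mRNA of ESR1 does not report on how much receptor is left.

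The 6 libraries held between 22179665 and 28481541 counts. Of 57773 entries in the table, 15715 genes had enough counts to be tested. A level is given in CPM (library totals adjusted by TMM factors), and a change as log2 of fulvestrant over untreated, with an approximate standard error (SE) and a p-value from edgeR's quasi-likelihood test adjusted over all tested genes (threshold 0.05). "Rose" and "fell" are used only for genes past that threshold. The stranded kit is named in the protocol but the strand setting of the counting is not, so overlapping and antisense genes may share counts, and counts of genes with close copies or pseudogenes are less certain.

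In this sample set 2 libraries stood apart. The first principal component (50.8% of the variance of log2 CPM) placed untreated library 1 at −11.2 against 25.2 and 36.5 for the other untreated libraries, and fulvestrant library 3 at −66.9 against 20.4 and −3.95 for the other treated ones. The second component (30.0%) separated all untreated libraries, at 13.7 to 34.4, from all treated libraries, at −40.1 to −1.25. Both outlying libraries held less of the transcripts with high GC content: the Spearman correlation across genes of a library's deviation from its group mean with transcript GC was −0.75 for untreated library 1 and −0.81 for fulvestrant library 3, against 0.47 to 0.81 for the other 4. FASN, the fatty acid synthase, shows the size of this spread, at 366, 781 and 1060 CPM in untreated libraries 1 to 3 and 825, 459 and 108 CPM in fulvestrant libraries 1 to 3, with a log2 change of −0.67 (adjusted p = 0.537). The response itself correlated weakly with GC (rho = −0.14 across 15373 genes, which are not independent replicates). The part of RNA quality in the results was not tested beyond these values. Counts below are given with and without a library where its absence moved a count of 5 or more by over 1.5 times, and counts under 5 often moved by a gene or more.

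The cells matched their label. Of 14 epithelial and Müllerian markers 13 were tested, and their summed level lay between 8820 and 11000.0 CPM in untreated and between 7200 and 12200 CPM in treated libraries, with EPCAM, which passed downward with the correction for GC content (adjusted p = 0.0328) but not once the replicate block was added to it, going from 412 ± 39.2 to 392 ± 30.4 CPM (mean ± SD, n = 3, untreated and then treated) and PAX8 from 105 ± 15.8 to 106 ± 32.2 CPM. SOX17 had 0 counts. Of 14 fibroblast markers 7 were tested, with COL3A1, LUM and POSTN at 0 counts, and the summed level went from between 294 and 314 CPM to between 129 and 196 CPM. Most of it was THY1, also found on carcinoma cells, which fell from 220.5 ± 4.1 to 93.3 ± 11.0 CPM (−1.24, SE 0.10, adjusted p = 1.49e-05). Leukocyte markers summed to between 61.2 and 83.0 CPM in all 6 libraries, with 5 of 15 tested and CD3D, CD3G, MS4A1, NKG7 and FCGR3A at 0 counts. Mesothelial and endothelial markers summed to between 89.3 and 250.0 CPM, with TEK and CLDN5 at 0 counts. In these 3 lists ACTA2, FAP, CD8A and CD68 rose and CDH5 and CALB2 fell besides THY1. Without untreated library 2 or 3 the calls of ACTA2 (adjusted p = 0.0792 and 0.0749) and CD68 (0.104 and 0.105) were lost, and CD68 also lost its call without untreated library 1 (0.118), fulvestrant library 1 (0.0649) or fulvestrant library 2 (0.104).

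Between untreated and fulvestrant-treated cells 4363 of the 15715 genes differed (27.8%), 2112 upward (13.4%) and 2251 downward (14.3%). Most changes were small: the median absolute log2 change of these genes was 0.45, and 439 (2.79% of all tested) moved by at least 1 on the log2 scale, 293 upward (1.86%) and 146 downward (0.929%). The median over all tested genes was −0.01, and the middle 90% lay between −0.65 and 0.76. In the lowest quartile of genes by level 15.4% passed, and in the highest 37.0%. For 5957 genes (37.9%) the 3 treated libraries did not overlap the 3 untreated ones, and for 5975 (38.0%) the unadjusted p was under 0.05. Genes that rose held 14.7% of all counts in untreated and 20.0% in treated cells. Genes that fell held 22.9% and then 17.6%. The split between the directions moved with the libraries: without untreated library 1 there were 2115 rises and 1770 falls, without untreated library 3 there were 1543 rises and 2063 falls, and without fulvestrant library 3 there were 1728 rises and 2689 falls. Leaving out both gave 1480 rises and 2279 falls, and scaling by total counts in place of TMM gave 2174 rises and 1898 falls.

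**Figure D1:**
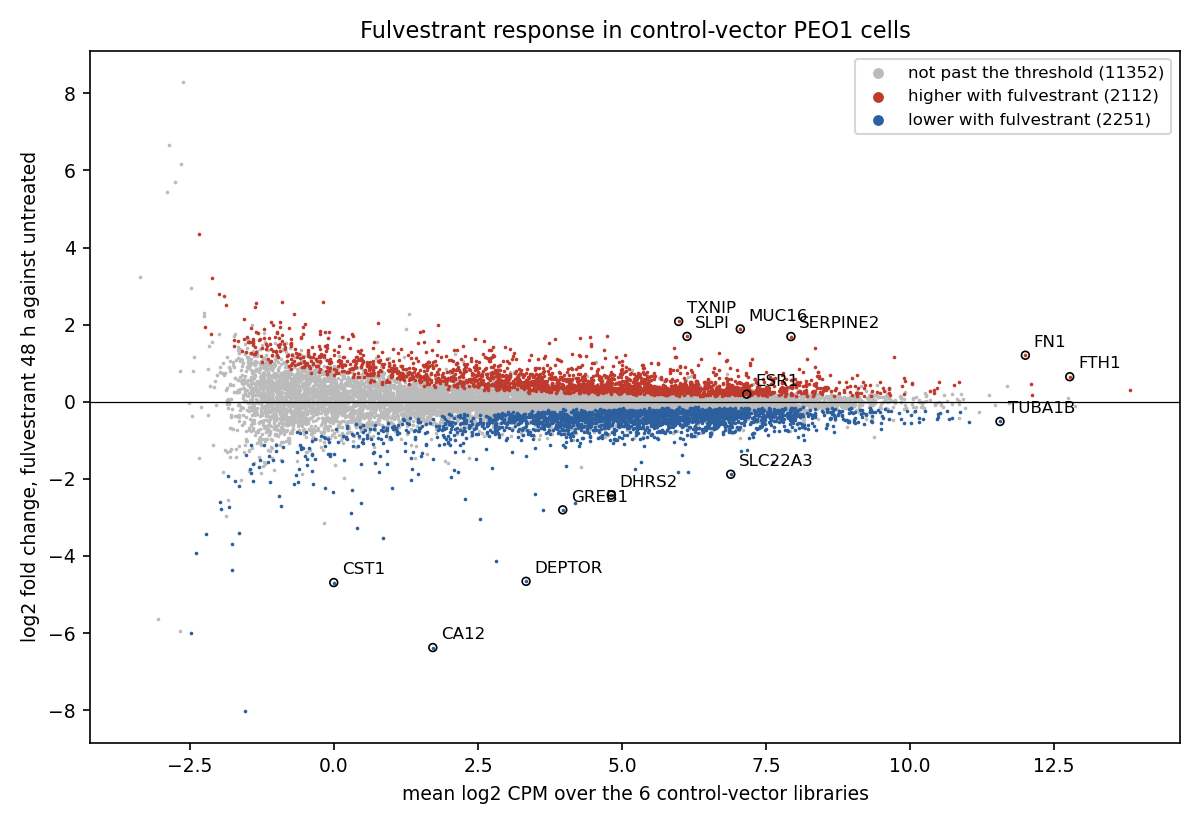
Log2 change with fulvestrant in control-vector cells (vertical axis, log2 units) against mean level over the 6 libraries (horizontal axis, log2 CPM), 1 point per tested gene. Of the 15715 genes, the 2112 that rose and the 2251 that fell are coloured, and most of them lie within 1 log2 unit of no change.

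The estrogen receptor gene itself and its best known targets were the natural first check of the drug. ESR1 mRNA stood at 141, 131 and 129.9 CPM in untreated libraries 1 to 3 and 149, 157 and 154 CPM in fulvestrant libraries 1 to 3, so all treated libraries lay above all untreated ones, by a log2 change of 0.20 (SE 0.05, adjusted p = 0.00834). That call was lost without fulvestrant library 2 (adjusted p = 0.0528), with the 6 control-vector libraries fitted alone (0.075) and with no filter on low counts (0.0755). GREB1, an early estrogen-induced growth gene, stood at 41.0, 44.1 and 38.5 CPM in untreated libraries 1 to 3 and 5.82, 6.03 and 5.82 CPM in fulvestrant libraries 1 to 3, a log2 change of −2.80 (SE 0.07, adjusted p = 6.27e-09). ESR2, which encodes the second estrogen receptor, had at most 9 counts in a library, and the progesterone receptor PGR had 1 or 2 counts in each of the 6 libraries, too few to test. TFF1, TFF3, AGR3 and CXCL12, which estrogen induces in breast cancer cells, had 0 counts in all 6 libraries, which allows up to 3 counts in a library.

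Of 48 estrogen receptor target genes 40 were tested, and 19 (47.5%) fell and 4 (10%) rose, with a median log2 change of −0.33 against −0.01 over all genes, of which 13.4% rose and 14.3% fell. Every list count below is to be read against those shares. Without untreated library 2 or fulvestrant library 2 there were 2 rises in this list. The falls were led by CA12, a carbonic anhydrase on the cell surface, at 30.0, 25.4 and 26.1 CPM untreated and 0.229, 0.393 and 0.34 CPM with fulvestrant (−6.38, SE 0.19, adjusted p = 1.86e-08). EGR3, an immediate early transcription factor under direct estrogen control, fell (−4.36, adjusted p = 7.20e-05). Its mean log2 CPM lay under 1, so the size of this fall rests on few counts. KRT13, a keratin of stratified epithelium, stood at 121, 145 and 139 CPM untreated and 47.1, 43.1 and 25.1 CPM with fulvestrant (−1.81, SE 0.23, adjusted p = 3.20e-04). Fulvestrant library 3 was the lowest for KRT13.

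Growth regulators among these targets fell by less. MYBL1, a transcription factor of the MYB family, stood at 78.4, 64.8 and 64.8 CPM untreated and 20.7, 24.4 and 25.0 CPM with fulvestrant (−1.57, SE 0.10, adjusted p = 3.70e-06). AREG, a ligand of the EGF receptor, changed (−1.12, adjusted p = 6.53e-05). MYB changed (−0.73, adjusted p = 2.49e-04), and MYC (−0.63, adjusted p = 0.00686). Cyclin D1 (CCND1), the link between growth signals and the cell cycle, went from 839 ± 30.0 to 742 ± 87.1 CPM and did not pass (−0.18, adjusted p = 0.149), though it did without fulvestrant library 1 (adjusted p = 0.0494). PDZK1, which estrogen raises in breast cancer cells, went from 38.2 ± 4.6 to 41.6 ± 5.76 CPM and did not pass (0.12, adjusted p = 0.497). The receptor's partners FOXA1 (0.32, adjusted p = 0.0892) and GATA3 (−0.34, adjusted p = 0.317) went from 5.52 ± 0.943 to 6.88 ± 0.448 CPM and from 10.5 ± 2.31 to 8.3 ± 2.75 CPM and did not pass. FOXA1 passed, upward, without untreated library 3 (adjusted p = 0.0206) and with the GC correction (0.0397), and GATA3, downward, without fulvestrant library 1 (0.0437).

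Against the direction of the list, AGR2, a protein disulfide isomerase of secretory cells and an estrogen-induced gene in breast cancer, stood at 3.13, 2.65 and 2.69 CPM untreated and 7.1, 7.17 and 8.75 CPM with fulvestrant (1.44, SE 0.11, adjusted p = 1.07e-05). All treated libraries held more than all untreated ones. XBP1, described with the secretory stress genes below, also rose. Among 20 coregulators and partner receptors, 5 rose and 3 fell. The rises were small, with NCOA1, the coactivator SRC-1, at 0.37 (adjusted p = 0.00247). Without untreated library 2 or fulvestrant library 2 there were 2 rises, and 3 without untreated library 3 or fulvestrant library 3. PPARGC1B, a coactivator of mitochondrial genes, fell (−0.84, adjusted p = 7.53e-05). TFAP2C, an AP-2 factor that regulates ESR1 in breast cells, fell (−0.64, adjusted p = 1.59e-05), a call that was lost with a correction for GC content (adjusted p = 0.397).

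Outside the list, among genes whose mean level reached a log2 CPM of 3 and whose groups did not overlap, the largest fall was that of DEPTOR. This inhibitor, which binds the kinase mTOR, stood at 51.7, 50.2 and 47.1 CPM in untreated libraries 1 to 3 and 1.97, 2.05 and 1.87 CPM in fulvestrant libraries 1 to 3, a log2 change of −4.66 (SE 0.07, adjusted p = 3.23e-11). Its values within each group lay close together and the groups were far apart. TNS4, a tensin of focal adhesions, stood at 25.4, 24.6 and 26.5 CPM untreated and 5.41, 5.59 and 3.69 CPM with fulvestrant (−2.38, SE 0.16, adjusted p = 5.27e-06). KCNF1, a modifier subunit of potassium channels, stood at 25.2, 36.3 and 42.3 CPM untreated and 7.38, 5.2 and 2.21 CPM with fulvestrant (−2.81, SE 0.40, adjusted p = 7.18e-04), with a wider spread in both groups. SLC22A3, an organic cation transporter, stood at 248, 223 and 211 CPM untreated and 58.2, 59.3 and 67.8 CPM with fulvestrant (−1.88, SE 0.08, adjusted p = 2.71e-07). ARHGAP26, a RhoA GTPase-activating protein (−1.82), LARGE, a glycosyltransferase of dystroglycan (−1.75), and GAL, the precursor of the peptide galanin (−1.66), were also among the 12 largest falls. So were DHRS2 (−2.42) and CISH (−2.62), the latter a member of the estrogen receptor target list. Genes near loss were 4: CA12, PRSS37, PIPOX and CST1 had a mean under 0.5 CPM with fulvestrant and at least 3 CPM without. CST1, a secreted cystatin, stood at 4.37, 4.02 and 4.5 CPM untreated and 0.229, 0.219 and 0.0425 CPM with fulvestrant (−4.69). No gene passed the same limits in the other direction. DIRAS3, an imprinted Ras-like gene known as a tumour suppressor in the ovary, went from 29.0 ± 0.568 to 1.66 ± 0.369 CPM (−4.12). It lay just under the mean level set for the 12 largest falls and was chosen after its values were seen.

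The strongest rises were led by TXNIP, an arrestin that restrains glucose uptake and binds thioredoxin, at 32.9, 31.0 and 28.4 CPM in untreated libraries 1 to 3 and 119, 128 and 144 CPM in fulvestrant libraries 1 to 3, a log2 change of 2.08 (SE 0.10, adjusted p = 3.89e-07). MUC16, the mucin that carries the ovarian cancer serum antigen CA125, stood at 69.1, 71.3 and 66.7 CPM in untreated libraries 1 to 3 and 242, 257 and 267 CPM in fulvestrant libraries 1 to 3 (1.89, SE 0.12, adjusted p = 4.06e-06). SERPINE2, a secreted inhibitor of serine proteases, stood at 143, 134 and 131 CPM untreated and 417, 427 and 474 CPM with fulvestrant (1.69, SE 0.07, adjusted p = 2.00e-07), and SLPI, another secreted protease inhibitor, at 40.3, 36.4 and 39.9 CPM untreated and 119, 123 and 135 CPM with fulvestrant (1.70, SE 0.07, adjusted p = 2.40e-07). In these 4 genes the treated libraries lay close together and far above every untreated library, where groups without overlap were a condition for the 12 largest rises. CLDN16, a claudin of tight junctions that passes magnesium in the kidney, stood at 15.8, 13.7 and 14.9 CPM untreated and 45.7, 46.5 and 52.7 CPM with fulvestrant (1.70). CTGF, a matricellular growth factor, stood at 11.9, 12.3 and 12.1 CPM untreated and 36.6, 41.0 and 37.7 CPM with fulvestrant (1.67), and the pro-apoptotic BH3 protein BMF at 8.14, 7.42 and 8.77 CPM untreated and 27.6, 26.7 and 21.3 CPM with fulvestrant (1.63). COL8A1 (1.66), FILIP1L (1.50), the chemokine CCL28 (1.45) and the metalloprotease ADAMTS9 (1.39) belonged to the same 12. NUPR1, a stress-induced nuclear protein that was also among them, spread widely with fulvestrant, at 6.37, 8.61 and 9.35 CPM untreated and 30.8, 26.0 and 12.6 CPM with fulvestrant (1.51, SE 0.34, adjusted p = 0.00824).

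**Figure D2:**
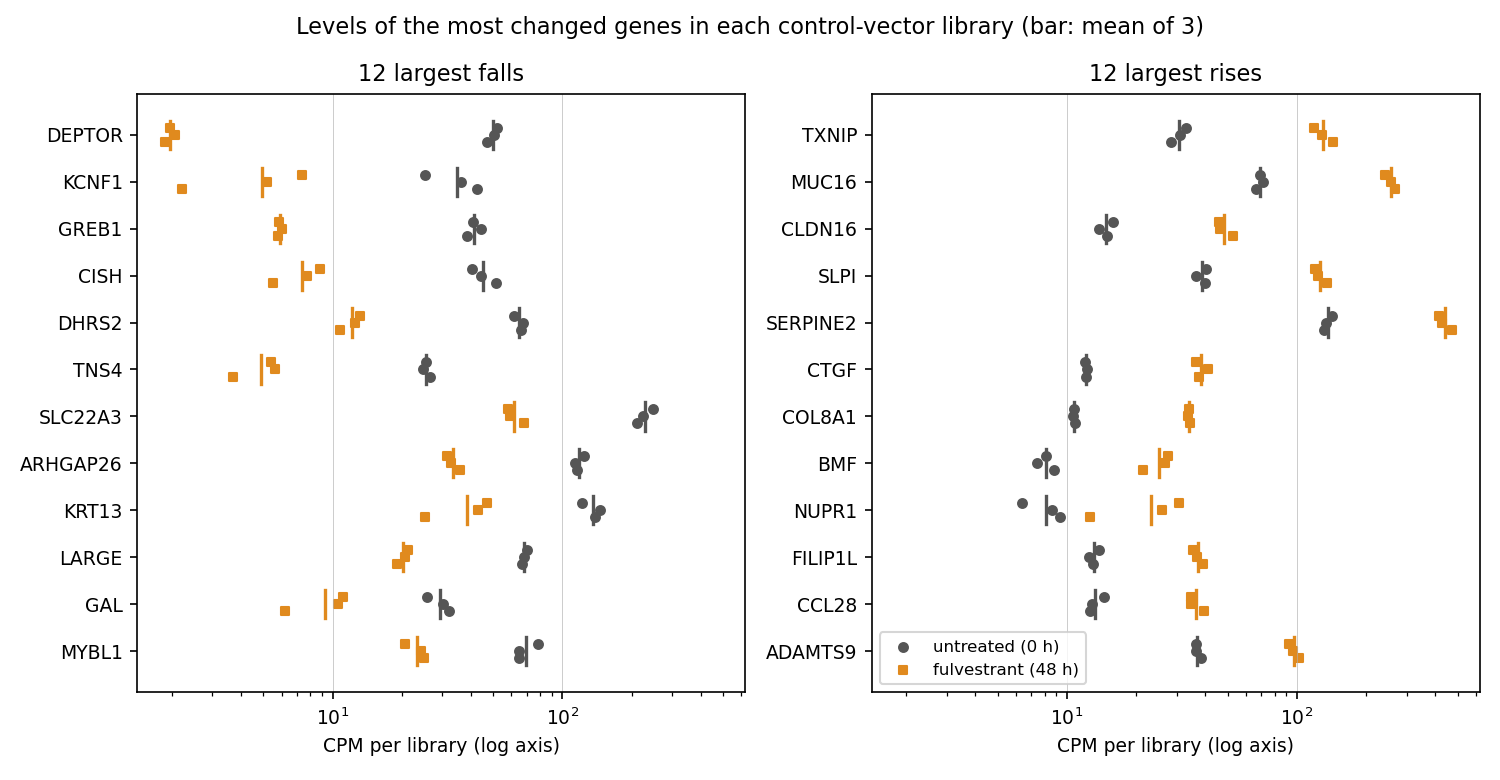
Level in each control-vector library (horizontal log axis, CPM) for the 12 largest falls and the 12 largest rises (vertical axis), with a circle for each of the 3 untreated libraries, a square for each of the 3 fulvestrant libraries and a bar at each group mean. DEPTOR went from between 47.1 and 51.7 CPM to between 1.87 and 2.05 CPM, while MUC16 went from 66.7 to 71.3 CPM up to 242 to 267 CPM. Groups without overlap were a condition for every gene shown.

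The largest changes in CPM were in abundant transcripts. FN1, the matrix protein fibronectin, stood at 2831, 2643 and 2643 CPM in untreated libraries 1 to 3 and 6114, 6172 and 6439 CPM in fulvestrant libraries 1 to 3 (1.21, SE 0.05, adjusted p = 2.88e-07), the largest gain in CPM. FTH1, the ferritin heavy chain that stores iron, went from 5567 ± 350.4 to 8730 ± 98.4 CPM (0.65), IGFBP5, an IGF-binding protein, from 3719 ± 68.0 to 5133 ± 557 CPM (0.46), and CLDN1, a barrier claudin, from 566 ± 38.8 to 1262 ± 95.2 CPM (1.16). The elongation factor EEF1A1 also rose in CPM terms (0.29, adjusted p = 0.0162), a call lost without untreated library 2 (adjusted p = 0.0607), untreated library 3 (0.065), fulvestrant library 2 (0.0545) or fulvestrant library 3 (0.0742). The largest losses in CPM were TUBA1B, an alpha tubulin, from 3611 ± 134 to 2533 ± 46.2 CPM (−0.51), the chaperones HSP90AA1 (−0.53) and HSPA8 (−0.41), the chromatin protein PTMA (−0.44), the glycolytic enzyme ENO1 (−0.44) and nucleolin (NCL, −0.54). FTH1, EEF1A1, TUBA1B, HSP90AA1, HSPA8 and PTMA have near-identical copies or pseudogenes, so part of their counts may belong to those.

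Genes of cell division fell as a group. Of 60 tested mitotic genes 57 (95%) fell and 0 rose, with a median log2 change of −0.61, against 14.3% falling among all genes. MYBL2, the B-MYB subunit that switches on mitotic genes, fell (−0.87, adjusted p = 0.0119). Cyclin B1 (CCNB1), the activator of CDK1 at entry into mitosis, went from 309 ± 23.5 to 182 ± 10.9 CPM (−0.76, SE 0.07, adjusted p = 2.27e-05). PLK1, a kinase of spindle assembly, stood at 146, 151 and 163 CPM untreated and 108, 89.1 and 74.5 CPM with fulvestrant (−0.76, SE 0.12, adjusted p = 0.00112), and fulvestrant library 3 was the lowest. TOP2A, which untangles sister DNA, fell (−0.58, adjusted p = 4.79e-04), and the proliferation marker MKI67 (−0.48, adjusted p = 0.00115). In a culture, fewer dividing cells and fewer of these transcripts per dividing cell cannot be told apart. Without any single library, and under each other setting, between 55 and 60 of these genes fell.

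Promoters of this group are shown because the members moved together and share letters. RefSeq promoters (build GRCh38.p14, the 250 bases before the start) were matched by symbol for 50 of the 60 genes. The CCAAT box (CCAAT, either strand), bound by NF-Y, lay in 35 (70.0%), against 32.0% of all 35116 promoters in the table. It also lay in 87.5% of the matched promoters of the endoplasmic reticulum chaperone list described below, which held no falls. The cell cycle homology region (CHR, TTTGAA, either strand), the site of the DREAM and B-MYB complexes, lay in 24 (48.0%), against 13.3%. Both were found in 19 (38.0%), against 4.69% of all promoters, and 18 of these 19 genes fell. Of the whole list 57 of 60 genes (95%) fell, so falls were not more frequent among these 19. Of 10 letter patterns searched, 9 were chosen after the data were seen, and these were picked because they had matches, so the shares are a description. A match is not a bound site. The promoters of PLK1 (chr16:23678639-23678888 on the plus strand), CDC20 (chr1:43358731-43358980 on the plus strand) and ESPL1 (chr12:53268049-53268298 on the plus strand) follow 5′ to 3′ toward the gene, with CCAAT or its reverse complement ATTGG and TTTGAA or its reverse complement TTCAAA in capitals.
PLK1: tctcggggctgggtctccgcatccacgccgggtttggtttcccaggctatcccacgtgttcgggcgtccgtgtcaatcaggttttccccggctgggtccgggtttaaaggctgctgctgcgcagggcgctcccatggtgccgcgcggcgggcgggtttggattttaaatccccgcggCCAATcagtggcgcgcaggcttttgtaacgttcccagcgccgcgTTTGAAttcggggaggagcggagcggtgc
CDC20: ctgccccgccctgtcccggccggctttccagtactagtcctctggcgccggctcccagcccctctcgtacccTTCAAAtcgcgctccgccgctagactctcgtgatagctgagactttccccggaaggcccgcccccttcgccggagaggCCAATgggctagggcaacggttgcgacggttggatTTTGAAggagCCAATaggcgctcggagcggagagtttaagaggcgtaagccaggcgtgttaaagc
ESPL1: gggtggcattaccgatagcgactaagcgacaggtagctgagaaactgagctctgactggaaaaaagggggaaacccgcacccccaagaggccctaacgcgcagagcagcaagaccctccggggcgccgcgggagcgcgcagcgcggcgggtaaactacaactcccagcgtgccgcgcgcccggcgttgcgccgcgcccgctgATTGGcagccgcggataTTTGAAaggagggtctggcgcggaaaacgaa
CDC20, which activates the ligase that ends mitosis, fell from 212 ± 2.8 to 131 ± 10.7 CPM (−0.69), and ESPL1, the separase that cuts cohesin, from 79.2 ± 5.28 to 46.5 ± 8.55 CPM (−0.77).

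DNA replication followed the same direction. Of 43 tested replication genes 38 (88.4%) fell and 0 rose, with a median of −0.62, and between 34 and 42 fell across the other settings. DNA2, a nuclease that trims Okazaki fragments, fell (−0.95, adjusted p = 2.32e-05). ORC1 of the origin recognition complex (−0.79, adjusted p = 3.18e-05), CDC45 of the replicative helicase (−0.78, adjusted p = 8.04e-06) and FEN1, the flap endonuclease (−0.78, adjusted p = 3.74e-05), fell by similar amounts. PCNA, the sliding clamp, stood at 305, 323 and 305 CPM untreated and 206, 206 and 178 CPM with fulvestrant (−0.66, SE 0.07, adjusted p = 6.21e-05). The E2F pattern TTTGGCGC lay in 3 of 36 matched promoters of this list (8.33%, against 0.55% of all promoters), and TTTGAA in none of the 36.

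Supply of nucleotides and repair by homologous recombination fell with replication. Of 31 nucleotide synthesis genes 21 (67.7%) fell and 0 rose (median −0.46), against 14.3% falling among all genes, with PFAS of purine synthesis (−0.90, adjusted p = 0.00583), DHODH of pyrimidine synthesis (−0.79, adjusted p = 0.00325), thymidylate synthase TYMS (−0.70, adjusted p = 1.11e-05) and the ribonucleotide reductase subunit RRM2 (−0.56, adjusted p = 6.95e-05). Of 33 recombination and Fanconi genes 21 (63.6%) fell and 0 rose (median −0.43). BLM, a helicase that dissolves recombination intermediates, fell (−0.72, adjusted p = 6.60e-04), and RAD54L, a DNA translocase of the same pathway, (−0.64, adjusted p = 7.51e-05).

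Regulators of the G1 phase went both ways. Of 27 tested genes 11 (40.7%) fell and 4 (14.8%) rose. The genes that fell included the activator E2F2 (−0.72, adjusted p = 4.06e-04), cyclin E1 (CCNE1, −0.59, adjusted p = 2.66e-04), CDK2 (−0.50, adjusted p = 3.18e-04), CDK4 (−0.45, adjusted p = 1.62e-04) and SKP2, the ligase subunit that destroys p27 (−0.60, adjusted p = 1.10e-04), and also the repressor E2F8 (−0.68, adjusted p = 1.45e-05). E2F1 fell (−0.56, adjusted p = 0.035), a call lost without untreated library 2 (adjusted p = 0.0918) or 3 (0.105). The 4 genes that rose are known as brakes of the cycle. The p21 gene CDKN1A stood at 7.68, 9.09 and 9.27 CPM untreated and 11.7, 12.6 and 10.0 CPM with fulvestrant (0.40, SE 0.12, adjusted p = 0.0348), the p27 gene CDKN1B went from 121 ± 1.89 to 138 ± 5.19 CPM (0.19, adjusted p = 0.0125), cyclin G2 (CCNG2) rose by 0.61 (adjusted p = 3.96e-04), and RBL2, the p130 pocket protein of resting cells, by 0.26 (adjusted p = 0.0409). Of these calls that of CCNG2 held without any single library. CDKN1A lost its call without each of 5 libraries, all but fulvestrant library 3 (adjusted p from 0.051 to 0.129), RBL2 without untreated library 2 (0.138), untreated library 3 (0.125), fulvestrant library 2 (0.103) or fulvestrant library 3 (0.222), and CDKN1B without fulvestrant library 2 (0.0692). The list held 2 rises without untreated library 2 or 3 and 1 without fulvestrant library 2.

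Most genes of the machinery that makes ribosomes fell, while the ribosome's own proteins did not pass. Of 46 tested genes of ribosome biogenesis 34 (73.9%) fell and 0 rose, with a median of −0.45. LYAR, a nucleolar growth regulator, fell (−0.94, adjusted p = 5.52e-06), NOP16 (−0.87, adjusted p = 0.00121), the RNA polymerase I subunit POLR1B (−0.60, adjusted p = 1.27e-04) and dyskerin (DKC1), which modifies ribosomal RNA, (−0.58, adjusted p = 8.64e-04). Among 46 tested ribosomal protein genes 0 passed in either direction, with a median of −0.01. The unadjusted p in edgeR was under 0.05 for 1 gene upward and 1 downward, and DESeq2 also called 0. The count depended on the setting. With the correction for GC content 6 rose and 2 fell, or 5 and 2 with the replicate block added. Each other alternative called at most 1. RPLP0, often used as a reference gene, went from 1840 ± 63.7 to 1866 ± 119.6 CPM (0.02, adjusted p = 0.877). Ribosomal protein genes have many processed pseudogenes, which can draw counts.

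Genes of protein folding and disposal in the cytosol fell by smaller amounts, in part. Of 28 cytosolic and mitochondrial chaperones 20 (71.4%) fell and 1 (3.57%) rose (median −0.36). HSPE1, the mitochondrial co-chaperonin, fell (−0.72, adjusted p = 0.00152), and FKBP4, a co-chaperone of steroid receptors, (−0.62, adjusted p = 5.37e-06). CRYAB, a small heat shock protein, was the single rise (0.59, adjusted p = 1.26e-05). Of 34 proteasome genes 21 (61.8%) fell and 0 rose (median −0.26), led by PSMB3 (−0.51, adjusted p = 4.22e-04) and the lid subunit PSMD11 (−0.45, adjusted p = 5.99e-04). This count was 13 without untreated library 2 or without fulvestrant library 1, and 12 without fulvestrant library 2. Of 46 nuclear genes of the respiratory chain 23 (50%) fell and 0 rose (median −0.29), with cytochrome c (CYCS) (−0.54, adjusted p = 0.00122) and the succinate dehydrogenase subunit SDHA (−0.48, adjusted p = 0.0112). Without fulvestrant library 2 the count was 13. Among 13 tested mitochondrial transcripts 2 rose, 1 fell and the median was 0.25. There were 5 rises without untreated library 1 and 0 without each of the other 5 libraries.

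Genes of cholesterol synthesis fell, and 2 cholesterol exporters rose. Of 23 sterol pathway genes 17 (73.9%) fell and 0 rose, with the lowest median of all lists described here (−0.67), and between 16 and 19 fell across the other settings. HMGCS1, at the start of the pathway, went from 260.0 ± 22.9 to 153 ± 11.6 CPM (−0.77, SE 0.08, adjusted p = 7.43e-05) and squalene epoxidase (SQLE) from 429 ± 15.4 to 256 ± 12.6 CPM (−0.74, SE 0.05, adjusted p = 5.07e-06). INSIG1, the sterol-sensing anchor of SREBP, changed (−0.81, adjusted p = 1.28e-05). The mRNAs of the pathway's regulators SREBF1 (−0.0047, adjusted p = 0.996) and SREBF2 (−0.11, adjusted p = 0.652) did not pass. Over the other settings SREBF1 lay between −0.482 and 0.313 and SREBF2 between −0.225 and 0.00947, so an unchanged level is not shown. The exporters ABCG1, at 2.03, 1.01 and 1.54 CPM untreated and 4.95, 5.95 and 5.52 CPM with fulvestrant (1.83, SE 0.22, adjusted p = 1.78e-04), and ABCA1, at 5.26, 4.24 and 4.73 CPM untreated and 11.3, 12.0 and 14.7 CPM with fulvestrant (1.42, SE 0.11, adjusted p = 1.28e-05), were higher in every treated than in any untreated library.

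Among 23 tested ABC transporters 5 (21.7%) rose and 4 (17.4%) fell, with a median of −0.04, against 13.4% rising and 14.3% falling among all genes. ABCC3, an exporter of conjugated drugs and bile acids, rose by 1.05 (adjusted p = 7.26e-04), while ABCC1, a drug exporter, fell (−0.44, adjusted p = 0.00747). Fatty acid synthesis had 4 (18.2%) falls and 1 (4.55%) rise in 22 genes, and 7 falls and 0 rises without fulvestrant library 3, with ELOVL6 (−0.57, adjusted p = 3.05e-04) and ATP citrate lyase (ACLY) (−0.47, adjusted p = 6.49e-04). SCD, the desaturase, went from 1281 ± 76.5 to 1147 ± 73.2 CPM and did not pass (−0.16, adjusted p = 0.0957), but passed without fulvestrant library 3 (adjusted p = 0.0149) and with the GC correction (2.20e-05). Fatty acid oxidation had 2 rises and 5 falls in 23, and without a single library the falls numbered between 2 (without untreated library 1, fulvestrant library 1 or fulvestrant library 2) and 8 (without fulvestrant library 3).

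Stress genes under the transcription factor ATF4, which answers to amino acid shortage and to misfolded protein, moved upward. Of 26 tested targets 18 (69.2%) rose and 1 (3.85%) fell, with a median of 0.53, against 13.4% rising among all genes. ATF4 mRNA itself went from 319 ± 11.9 to 407 ± 23.5 CPM (0.35, SE 0.06, adjusted p = 0.00104). Genes that rose included the secreted peptide ADM2 (1.82, adjusted p = 0.00328), the mitochondrial folate enzyme ALDH1L2 (0.97, adjusted p = 1.96e-05), cystathionine gamma-lyase (CTH, 0.89, adjusted p = 9.00e-04), the cystine importer SLC7A11 (0.89, adjusted p = 1.66e-04), SESN2, an inhibitor of mTORC1 (0.81, adjusted p = 0.0116), and asparagine synthetase (ASNS, 0.69, adjusted p = 1.05e-04). Across other settings between 14 and 21 rose. Amino acid transporters, a list that shares SLC7A11 with it, were divided, with 4 (17.4%) rises and 8 (34.8%) falls in 23: SLC7A2, a cationic amino acid carrier, fell (−1.19, adjusted p = 3.74e-05), and SLC1A4 rose by 0.49 (adjusted p = 1.32e-04). The tRNA synthetase list held 5 rises, among them tryptophanyl-tRNA synthetase (WARS, 0.70, adjusted p = 1.04e-05), and 5 falls, among them FARSB (−0.42, adjusted p = 0.00508). The falls numbered 3 without untreated library 2.

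Some genes of protein folding in the endoplasmic reticulum rose. Of 29 tested genes of this list 10 (34.5%) rose, 0 fell and the other 19 did not pass (median 0.15). DNAJB9, a co-chaperone of BiP, rose by 0.74 (adjusted p = 2.05e-04), and HERPUD1, of the degradation complex, by 0.58 (adjusted p = 2.99e-04). BiP itself (HSPA5) went from 505 ± 7.76 to 593 ± 3.94 CPM (0.23, SE 0.04, adjusted p = 0.00137), and the stress transcription factor XBP1 from 52.3 ± 1.55 to 69.8 ± 3.41 CPM (0.42, SE 0.06, adjusted p = 7.85e-04). The lectin chaperone CANX rose by 0.28 (adjusted p = 0.0133), a call that was lost without untreated library 2 (adjusted p = 0.0591), untreated library 3 (0.0527) or fulvestrant library 3 (0.0626).

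The promoters of these 3 are shown because they hold the ER stress element, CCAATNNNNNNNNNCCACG, a site of ATF6 with NF-Y. It was found on either strand in 6 of 24 matched promoters of the list (25.0%), against 26 of 35116 in all (0.074%), and 3 of the 6 genes rose. Of the whole list 10 of 29 genes (34.5%) rose. This pattern contains a CCAAT box, and it too was picked after the data were seen. The promoters of XBP1 (chr22:28800570-28800819 on the minus strand), CANX (chr5:179698679-179698928 on the plus strand) and HSPA5 (chr9:125241344-125241593 on the minus strand) are given from RefSeq GRCh38.p14, 5′ to 3′ toward the gene, with the element in capitals.
XBP1: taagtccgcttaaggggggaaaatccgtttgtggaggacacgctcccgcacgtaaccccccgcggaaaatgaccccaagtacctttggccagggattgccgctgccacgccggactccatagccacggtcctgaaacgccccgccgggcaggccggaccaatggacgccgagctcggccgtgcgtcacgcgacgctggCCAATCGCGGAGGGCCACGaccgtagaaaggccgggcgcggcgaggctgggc
CANX: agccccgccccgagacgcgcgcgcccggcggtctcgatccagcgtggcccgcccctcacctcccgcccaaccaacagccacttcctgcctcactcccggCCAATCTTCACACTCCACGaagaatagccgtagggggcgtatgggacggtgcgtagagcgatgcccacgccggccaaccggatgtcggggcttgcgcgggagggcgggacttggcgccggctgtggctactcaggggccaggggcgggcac
HSPA5: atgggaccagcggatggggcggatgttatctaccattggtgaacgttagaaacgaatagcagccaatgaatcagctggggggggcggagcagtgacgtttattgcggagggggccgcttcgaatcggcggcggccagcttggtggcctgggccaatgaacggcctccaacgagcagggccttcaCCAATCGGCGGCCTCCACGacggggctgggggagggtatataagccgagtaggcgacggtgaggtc
The amino acid response pattern TGATGCAAT lay in 0 of 22 matched promoters of the ATF4 list, against 76 of 35116 in all (0.216%). At so low a share, 0 of 22 says nothing about this list. The palindromic estrogen response element, the half-sites GGTCA and TGACC with 3 free bases between them, was found in 14 of all 35116 promoters (0.0399%). Matched promoters covered only 75.1% of the genes that fell and 72.5% of the estrogen receptor targets, below the 80% needed, so no share is given for either.

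A share of the autophagy genes rose. Of 33 tested genes 16 (48.5%) rose and 0 fell (median 0.23), and the count was 10 without fulvestrant library 3 and 8 with the control-vector libraries fitted alone. The cargo receptors NBR1 (0.60, adjusted p = 2.98e-05) and OPTN (0.54, adjusted p = 4.64e-05), the membrane protein WIPI1 (0.76, adjusted p = 5.71e-05), ATG9B (1.26, adjusted p = 0.00162) and the ATG8 family member GABARAPL1 (0.76, adjusted p = 3.51e-05) were among them. Lysosomal genes went in both directions, with 17 (32.7%) rises and 4 (7.69%) falls in 52, and 11 rises without untreated library 2, untreated library 3 or fulvestrant library 2. Cathepsin F (CTSF) rose by 1.05 (adjusted p = 0.00287) and beta-mannosidase (MANBA) by 0.56 (adjusted p = 0.00282), while alpha-galactosidase A (GLA) fell (−0.78, adjusted p = 4.36e-04) and cathepsin C (CTSC) (−0.61, adjusted p = 4.26e-04). TFEB, the transcription factor of lysosomal genes (0.04, adjusted p = 0.957), and MTOR (−0.04, adjusted p = 0.547) did not pass at the mRNA level, beside the fall of DEPTOR given above. TFEB lay between −0.386 and 0.355 over the other settings, so an unchanged level is not shown for it.

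**Figure D3:**
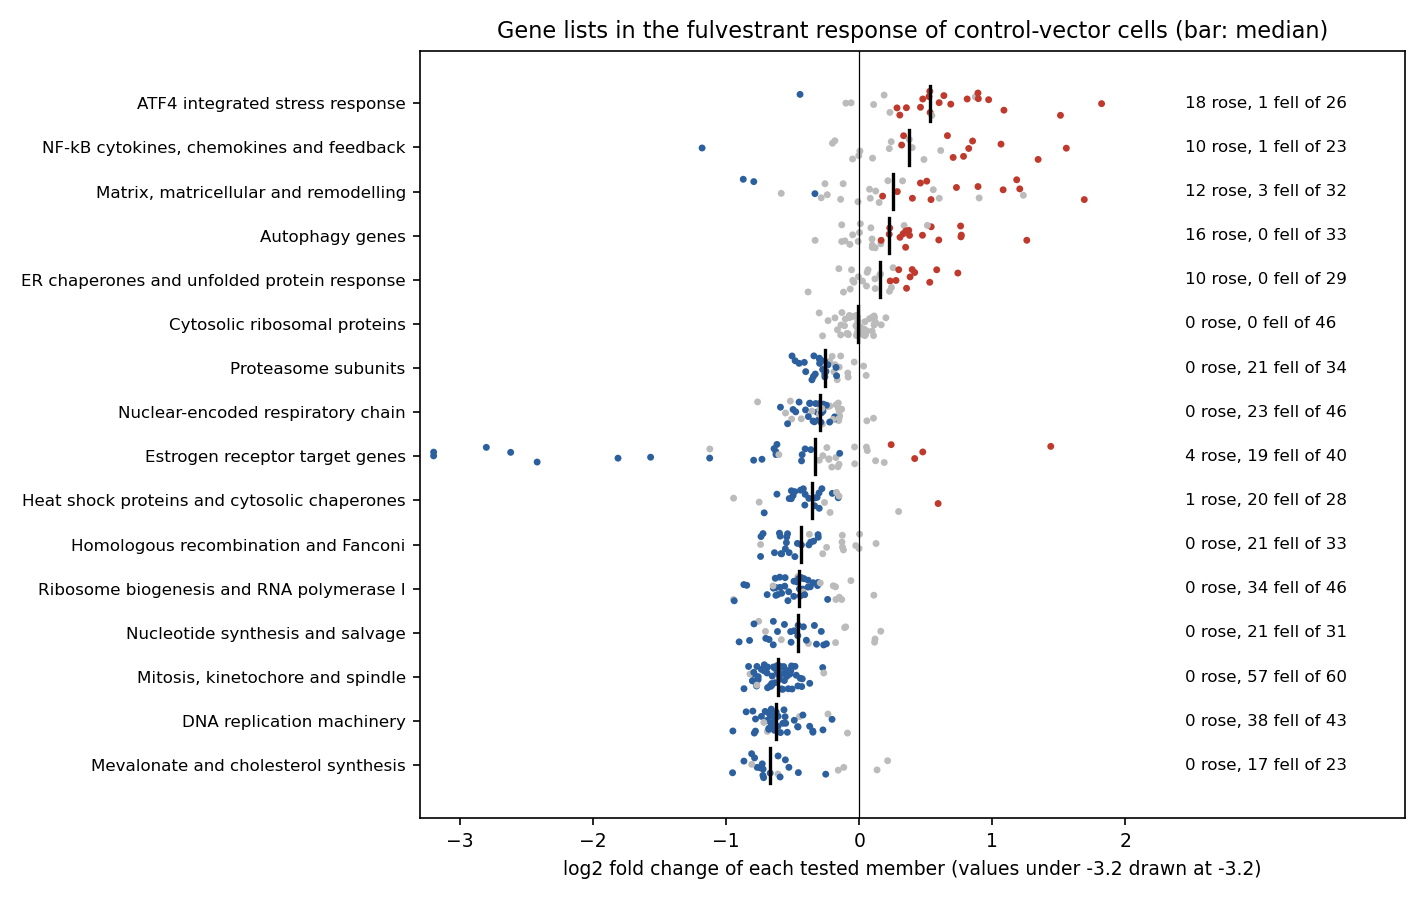
Log2 change of each tested member (horizontal axis) for a selection of the gene lists (vertical axis), in red where it rose, blue where it fell and grey where it did not pass, with a bar at the list median; CA12 and EGR3 lie beyond the left limit and are drawn at it. The sterol, replication and mitosis lists lie to the left with medians of −0.67, −0.62 and −0.61, the ATF4 list lies to the right with a median of 0.53, and the ribosomal protein list lies at −0.01.

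Some inflammatory genes rose. Of 23 targets of NF-kB 10 (43.5%) rose and 1 (4.35%) fell (median 0.38). The atypical IkB protein NFKBIZ rose by 0.71 (adjusted p = 0.00658), the adhesion molecule ICAM1 by 0.82 (adjusted p = 6.37e-04), manganese superoxide dismutase (SOD2) by 0.78 (adjusted p = 1.11e-05) and the feedback inhibitor TNFAIP3 by 0.66 (adjusted p = 2.43e-05). CCL2, a monocyte chemokine, went the other way and fell (−1.18, adjusted p = 0.0413), a call lost without each of 5 libraries, all but untreated library 1 (adjusted p from 0.0606 to 0.15). NFKB1 itself did not pass (0.10, adjusted p = 0.286), but passed without untreated library 1 (0.0483). Interferon-stimulated genes had 14 (35.9%) rises and 3 (7.69%) falls in 39 (median 0.06): the guanylate-binding protein GBP2 rose by 1.21 (adjusted p = 5.27e-06) and XAF1 by 1.32 (adjusted p = 0.00295), and IFITM1 fell (−0.97, adjusted p = 0.00615).

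Growth factor ligands and receptors moved in both directions. The EGF receptor EGFR stood at 807, 749 and 759 CPM in untreated libraries 1 to 3 and 1175, 1170 and 1173 CPM in fulvestrant libraries 1 to 3 (0.60, SE 0.04, adjusted p = 7.32e-06), with nearly the same value in the 3 treated libraries. HBEGF, a ligand, rose by 0.74 (adjusted p = 2.61e-05) and the receptor ERBB3 by 0.46 (adjusted p = 4.21e-05), whereas the ligands EREG (−1.80, adjusted p = 9.29e-04) and AREG (−1.12, adjusted p = 6.53e-05) fell. The mean log2 CPM of EREG lay under 1, so its change rests on few counts. ERBB2 spread widely, at 265, 313 and 332 CPM untreated and 409, 370.0 and 219 CPM with fulvestrant, and did not pass (0.13, adjusted p = 0.737) except with the correction for GC content (0.00796). Of 16 tested genes of insulin-like growth factor signalling 7 (43.8%) rose and 1 (6.25%) fell: IGF1 rose by 0.88 (adjusted p = 3.13e-04) and the receptor IGF2R, which clears IGF2, by 0.34 (adjusted p = 5.60e-04). The estrogen-responsive binding protein IGFBP4 fell (−0.43, adjusted p = 1.85e-04), a call that was lost with the GC correction (adjusted p = 0.645). The receptor IGF1R (−0.22, adjusted p = 0.0635, or 0.0448 with the GC correction and 0.0688 with the replicate block added to it) and the adaptor IRS1 (−0.13, adjusted p = 0.734), both estrogen-dependent in breast cancer cells, did not pass.

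Other growth pathways held genes that moved both ways. Among 16 genes downstream of ERK 5 rose and 1 fell: SPRY1, a feedback inhibitor, rose by 1.08 (adjusted p = 0.00432), and FOSL1, an AP-1 subunit, fell (−1.10, adjusted p = 0.00176). The mean log2 CPM of SPRY1 lay under 1, so its change rests on few counts. Without untreated library 2 or fulvestrant library 3 there were 3 rises, and without fulvestrant library 1 there were 5 rises and 5 falls. Targets of YAP and TEAD held 8 (44.4%) rises and 4 (22.2%) falls in 18, in which CTGF rose while the related CYR61 (−0.74, adjusted p = 1.01e-05) and the receptor kinase AXL, at 195, 207 and 222 CPM untreated and 95.2, 91.5 and 71.8 CPM with fulvestrant (−1.27), fell. Without both outlying libraries there were 5 rises. TGF-beta signalling held 6 rises and 2 falls in 20, with TGFBI at 0.71 (adjusted p = 5.77e-06) and the activin subunit INHBB (−0.85, adjusted p = 0.00202). The cytokine receptor and JAK-STAT list held 6 rises and 2 falls in 25, with the repressor BCL6 at 0.82 (adjusted p = 3.08e-04) and the receptor subunit IL6ST at 0.46 (adjusted p = 0.00178), and 3 rises without untreated library 2 or untreated library 3.

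Genes of the cell surface and matrix changed strongly in a few members. Of 32 matrix genes 12 (37.5%) rose and 3 (9.38%) fell (median 0.25): besides FN1 and SERPINE2, the sulfatase SULF1 rose by 1.18 (adjusted p = 0.00381), the protease ADAMTS1 by 1.08 (adjusted p = 7.27e-05) and the protease inhibitor TIMP3 by 0.73 (adjusted p = 4.01e-04), while the related SULF2 fell (−0.79, adjusted p = 0.00199). Of 18 junction genes 3 rose, CLDN16, CLDN1 and INADL, the last of which lost its call without untreated library 2 (adjusted p = 0.127), untreated library 3 (0.136), fulvestrant library 2 (0.12) or fulvestrant library 3 (0.185). Of 25 genes of epithelial-mesenchymal transition 4 rose, and 2 fell, or 1 without any of untreated libraries 1 to 3 or fulvestrant library 3. The shorter lists below held few calls, at shares often near those of all genes, and their counts are given with the range over all alternatives. Wnt genes held 2 rises (2 to 3) and 2 falls (1 to 2) in 18, and Notch genes 2 rises (1 to 2) and 1 fall (0 to 2) in 12. Clock genes had 4 rises (2 to 5) and 1 fall (0 to 3) in 18. Antigen presentation by MHC class I had 2 rises (1 to 7) and 1 fall in 20, the 7 being with the GC correction. Histone genes, most of whose mRNA lacks a poly(A) tail and is poorly caught in such libraries, had 1 rise (0 to 1) and 2 falls (0 to 2) in 19. E-cadherin (CDH1) went from 248 ± 14.4 to 257 ± 12.0 CPM (0.05, adjusted p = 0.567) and vimentin (VIM) from 8.75 ± 0.748 to 8.29 ± 0.656 CPM (−0.08, adjusted p = 0.582), neither past the threshold. CDH6, a cadherin of kidney and ovarian tumours, rose by 0.96 (adjusted p = 2.58e-06).

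Markers of ovarian carcinoma went both ways. Of 22 tested markers 4 (18.2%) rose and 6 (27.3%) fell. MUC16 and SLPI, given above, rose with the immune checkpoint protein VTCN1 (0.72, adjusted p = 5.22e-05). Kallikreins are secreted proteases encoded by neighbouring genes, and 4 of the 6 tested fell, with KLK5 going from 927 ± 27.6 to 569 ± 67.9 CPM (−0.70), KLK6 from 869.7 ± 15.6 to 597 ± 35.1 CPM (−0.54), KLK10 changing (−0.66, adjusted p = 2.24e-04), and KLK8 the last, a call lost without untreated library 2 (adjusted p = 0.0516). KLK7 (−0.17, adjusted p = 0.167) and KLK11 (−0.19, adjusted p = 0.803) did not pass. WT1, a transcription factor that marks serous tumours, fell (−0.50, adjusted p = 0.00147). Keratin 8 (KRT8) went from 2169 ± 281 to 1609 ± 433 CPM and did not pass (−0.43, adjusted p = 0.129), but passed, downward, without fulvestrant library 1 (adjusted p = 0.0255) and with the GC correction (4.36e-05).

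Of 32 tested p53 targets 10 (31.2%) rose and 4 (12.5%) fell (median 0.12), against 13.4% and 14.3% of all genes. There were 2 falls without untreated library 2 and 1 without untreated library 1, fulvestrant library 1 or fulvestrant library 2. ABHD4 rose by 1.16 (adjusted p = 2.54e-06) and ZMAT3, an RNA-binding protein, by 0.66 (adjusted p = 6.39e-05). MDM2, the ligase that degrades p53, fell (−0.27, adjusted p = 0.0144), a call lost without untreated library 1 (adjusted p = 0.0515), untreated library 2 (0.0516), fulvestrant library 1 (0.0904) or fulvestrant library 2 (0.115). Of 20 genes of the BCL2 family 6 rose and 0 fell, and without fulvestrant library 3 there were 3 rises. BMF was far above the others, which included BNIP3 (0.45, adjusted p = 7.97e-04) and BNIP3L (0.30, adjusted p = 0.00144). BCL2, an estrogen-induced survival gene in breast cancer, went from 10.2 ± 1.25 to 8.71 ± 0.453 CPM and did not pass (−0.23, adjusted p = 0.146), but passed with the GC correction (0.0268).

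Metabolic genes outside these groups were mixed. Of 29 genes of glycolysis and hypoxia 6 (20.7%) rose and 9 (31%) fell. PFKFB3, which speeds glycolysis, fell (−0.96, adjusted p = 5.78e-05), ENO1 (−0.44, adjusted p = 8.79e-04) and glucose phosphate isomerase (GPI) (−0.40, adjusted p = 0.01), while ARRDC4, an arrestin related to TXNIP, rose by 0.87 (adjusted p = 0.00119) and VEGFA by 0.47 (adjusted p = 8.93e-04). Targets of NRF2, the regulator of the oxidant response, had 4 rises and 3 falls in 22, with ferritin among the rises and glutathione reductase (GSR) among the falls (−0.42, adjusted p = 0.00189). Retinoid and vitamin D genes had 4 rises and 2 falls in 15, or 1 fall without untreated library 2, untreated library 3 or fulvestrant library 2: RARB, a retinoic acid receptor, rose by 0.95 (adjusted p = 0.00107).

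The same treatment in the p53-knockdown cells shared no library with these samples and gave a similar picture. Of the 4363 genes changed in control-vector cells, 4340 (99.5%) had the same sign in knockdown cells and 3981 (91.2%) also passed the threshold there in the same direction, where 40.9% of all tested genes passed in either direction. Over the 4363 genes the median ratio of the change in knockdown cells to that in control-vector cells was 1.24. Some lists changed less in knockdown cells and in the same direction, with medians there of 0.27 for the ATF4 list, 0.19 for the NF-kB list and −0.61 for the sterol list, against 0.53, 0.38 and −0.67 in control-vector cells. Others changed more. The medians in knockdown cells were −1.06 for replication, −0.84 for mitosis, −0.77 for nucleotide synthesis and −0.78 for recombination. In control-vector cells these were −0.62, −0.61, −0.46 and −0.43. The knockdown response correlated more with transcript GC (rho = −0.30) than that of the control vector, and the part of this in the ratio was not tested. A test of the difference between the responses, gene by gene, passed for 4 genes (0.0255%), 2 with the higher value in knockdown cells (0.0127%) and 2 with the lower (0.0127%). Of the 4363 genes changed in control-vector cells 3 were among them (0.0688%). The unadjusted p was under 0.05 for 1171 genes, which is 7.45% of those tested, and DESeq2 called 45. GREB1 fell more in knockdown cells (−3.56) than in control-vector cells (−2.80). CYP24A1, the enzyme that breaks down vitamin D, had a log2 change of 0.16 in control-vector cells, where it did not pass (adjusted p = 0.0869, or 0.0471 without untreated library 3), and of 0.96 in knockdown cells. CDH6 rose by 0.96 and 1.58, and SH3KBP1, an adaptor of receptor endocytosis, changed by −0.27 and −0.86.

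**Figure D4:**
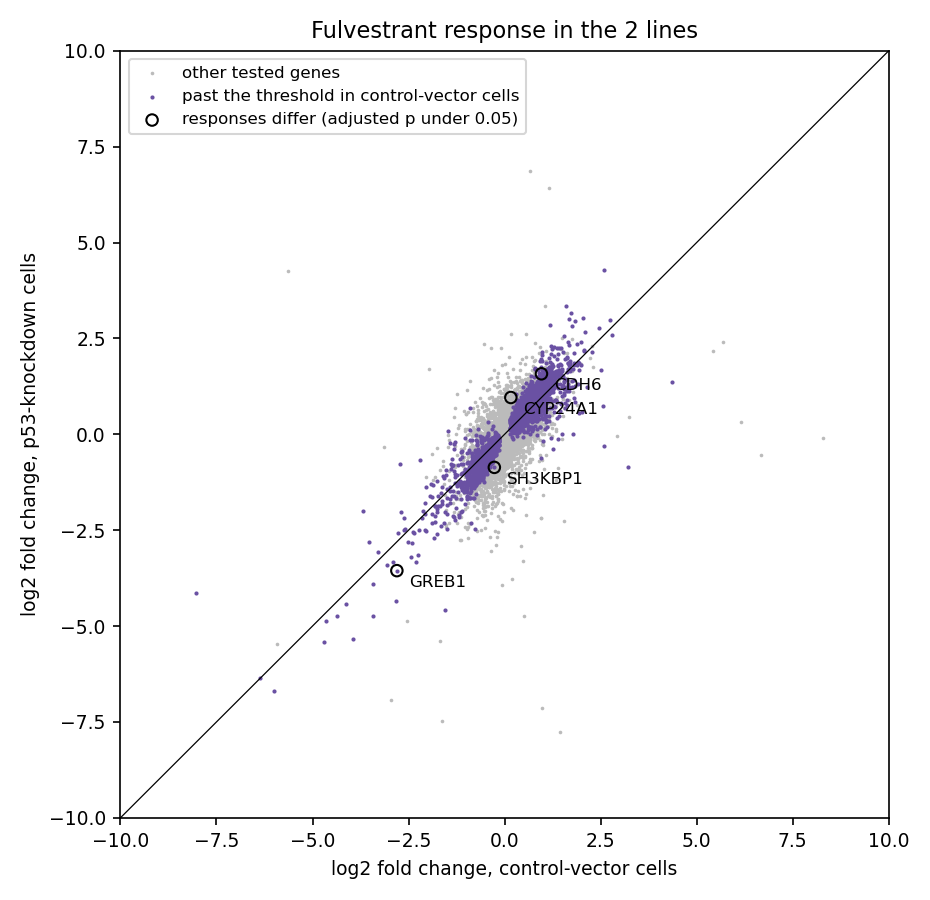
Log2 change with fulvestrant in p53-knockdown cells (vertical axis) against that in control-vector cells (horizontal axis), 1 point per tested gene, with the line of equal change. Of the 4363 genes changed in control-vector cells, 99.5% lie on the same side of 0 in both, and the 4 genes for which the difference itself passed are marked.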

How the data were processed

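RNA of PEO1 cells was sequenced with a stranded mRNA kit from 500 ng of RNA with 9 PCR cycles, per the labels' protocols. The authors deposited 1 table of expected counts per gene (estimated counts from RSEM, whole numbers, not normalized), per the file headers. The submitters' processing notes name RSEM 1.3.3, Bowtie2, cutadapt and MultiQC and the build GRCh37/hg19. Annotation release and strand setting were not found in the labels or headers. Another 6 columns of per-sample values were left out, since no sample used here matched them.

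Groups came from the labels. Counts were rounded, which changed no value, filtered with filterByExpr, scaled by TMM (factors 0.984 to 1.056) and fitted in R 4.3.3 with edgeR 4.0.16 (robust quasi-likelihood, 1 mean for each of the 4 groups, all 12 libraries, no covariates). The contrasts were fulvestrant against untreated in control-vector cells and the difference of this response from that in knockdown cells. Adjusted p-values are Benjamini-Hochberg over all 15715 tested genes and come from this fit unless an alternative is named. With a library left out or another setting named, the value is from that fit, adjusted over the genes tested there. DESeq2 1.42.0 was among the alternatives. The SE is approximate (log2 change over the root of F), and it can be too small where counts are few. On simulated data with 15536 genes tested the fit recovered 91.1% of genes changed by 1 and 28.4% of genes changed by 0.585 on the log2 scale, with 7 false calls. Changes were put only into genes of higher counts, with the same dispersion for all genes and no GC trend between libraries. Recovery among genes of few counts, or with outlying libraries, was not measured. Replicates differed beyond sampling noise in every pair of the control-vector groups (chi-square per degree of freedom 4.83 to 80.6).

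The 52 gene lists hold 1345 distinct genes in the table, of which 1243 were tested. Members, lists and the rule for named genes were chosen with earlier results of these data known, so no list has a test. Named are ESR1, PGR and GREB1, the 12 largest rises and falls past a mean log2 CPM of 3 whose groups did not overlap, the 6 largest rises and falls in CPM, genes under 0.5 CPM in 1 group and at least 3 in the other, up to 3 members of each list with the largest change, and its defining members. Some genes that meet this rule are not reported here. The genes taken as defining, other large members of the lists and the promoter patterns besides the estrogen response element were picked after the data were seen. Promoters are from the RefSeq table (GRCh38.p14), which covered 10480 of the tested genes (66.7%), and no coordinate of another build was used. Alternatives were other normalization, filters and tools, the control-vector libraries alone, the replicate block, a correction for GC content (a lowess fit with a span of 0.3, with transcript GC from the GENCODE reference by transcript identifier for 97.82% of genes) and leaving out libraries. The fit without both outlying libraries was added after the data were seen.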

Additional observations from a re-analysis of the deposited data

Results flagged for a closer look

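In 4 genes the fulvestrant response differed between the p53-knockdown and the control-vector cells by the test of the difference itself (edgeR quasi-likelihood, adjusted over all tested genes). For CYP24A1 the log2 change was larger in knockdown cells by 0.7962 (adjusted p = 0.0277). For GREB1 the difference was -0.7504 (adjusted p = 0.0478), a deeper fall in knockdown cells. For CDH6 it was 0.6172 (adjusted p = 0.0478), a larger rise, and for SH3KBP1 it was -0.596 (adjusted p = 0.0265), a deeper fall. Calls of this contrast depended on the setting: edgeR called 0 genes with total counts alone, with no filter on low counts and with the replicate block, and DESeq2 called 45.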

How the results depend on the processing

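The count of 4363 changed genes lay between 2976 (the 6 control-vector libraries alone, with 1216 rises) and 4615 (genes with at least 1 CPM in 3 libraries) except with the correction for GC content, which gave 6791 (3349 rises and 3442 falls), or 6268 with the replicate block added. Leaving out 1 library gave 3102 to 4417 genes, 1479 to 2115 of them rises. DESeq2 called 3808 and the replicate block in edgeR 3613. Whether the numbers pair the libraries was not settled. Deviations of same-numbered untreated and treated control-vector libraries correlated at −0.934, 0.587 and −0.899. Between the 2 lines they correlated at 0.871, 0.184 and 0.807 for untreated and at 0.769, −0.789 and −0.893 for treated libraries. The deviations followed transcript GC, so these values cannot decide on pairing. Whether a call lost under the block is a weaker effect therefore cannot be told.

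Genes differing between the 2 responses numbered 4, and 0 with total counts alone, with no filter, with the replicate block and with both outlying libraries left out, 14 with the 1 CPM filter, 45 with DESeq2, 591 with the GC correction and 344 with that and the replicate block. Leaving out 1 library gave 0 to 7. The cause was not tested. The median of the 13 genes of the EGF ligand and receptor list turned from 0.133 to −0.0391 without fulvestrant library 1, with 0.182 the highest value without a library, and should be read as having no direction. Medians of other lists also crossed 0 over the alternatives. Among them were Notch (−0.59 to 0.0411), ovarian markers (−0.143 to 0.12), MHC class I (−0.0352 to 0.121) and tRNA synthetases (−0.0351 to 0.108). Such lists likewise have no settled direction. With total counts the median of all genes moved to 0.01. Of 292 named genes tested, 268 passed the threshold, 217 of them under every alternative that gave them an adjusted p, and 0 changed sign while called. A few named genes had no adjusted p with the 1 CPM filter or with DESeq2. Depth limits genes of few counts, of which PGR and ESR2 could not be tested.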

Other observations

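Long noncoding RNAs, which were not described above, had 9 rises and 3 falls among 19 tested members of a list of well-known ones, with a median log2 change of 0.33. Among RNAs kept in the nucleus, MALAT1 rose by 0.78 (adjusted p = 0.00142) and NEAT1 by 0.51 (adjusted p = 6.21e-04). LUCAT1, a stress-linked RNA, rose by 0.96 (adjusted p = 0.00815), and MIR22HG, the host of miR-22, by 0.87 (adjusted p = 6.46e-05). Hosts of small nucleolar RNAs went both ways: GAS5 rose by 0.55 (adjusted p = 0.00309) and SNHG5 by 0.42 (adjusted p = 0.00703), while SNHG15 fell (−0.45, adjusted p = 0.00158).

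Genes that maintain DNA methylation and Polycomb marks had 7 falls and 1 rise in 22. DNMT1, the maintenance methyltransferase, stood at 380.0, 402 and 413 CPM untreated and 288, 265 and 226 CPM with fulvestrant (−0.62, adjusted p = 4.06e-04), and EZH2, the Polycomb methyltransferase of dividing cells, fell (−0.51, adjusted p = 7.72e-04). UHRF1, which guides DNMT1 to newly copied DNA, fell (−0.90, adjusted p = 0.0205), a call that was lost without untreated library 2 (adjusted p = 0.0575) or untreated library 3 (0.0705). EZH1 was the single rise, a call lost without untreated library 2 or 3 or fulvestrant library 2 or 3 (0.0516 to 0.0736).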
